A study of Mus musculus with 5 samples.

Results

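The ion, phosphate and metal solute carriers are membrane proteins that move bicarbonate, chloride, sodium, calcium, sulphate, phosphate, zinc and other metal ions across cell membranes. Their transcripts were examined in cells sorted for GFP from lungs of 2-day-old SPC-GFP mouse pups. Members were all genes of the families Slc4, Slc8, Slc9, Slc12, Slc20, Slc26, Slc30, Slc34 and Slc39 with a probe set assigned to 1 gene symbol in the platform annotation, and where a gene had several, the one with the highest mean was used. This gave 69 of 18194 genes, with 135 of 34958 probe sets. The symbol rule also took in 3 genes that encode no carrier: Slc4a1ap, the kanadaptin gene, and Slc9a3r1 and Slc9a3r2, which encode the PDZ scaffold proteins NHERF1 and NHERF2.

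SPC abbreviates surfactant protein C, made by the alveolar type 2 cells that secrete surfactant in the air sacs. The pups came from crosses of the SPC-GFP line with outbred ICR mice, the lungs were dissociated with trypsin and EDTA, and all samples share the transgene, the age and the sort. Each of the 5 biological replicates was run on 1 array. They form a single group, so no treatment, genotype or age could be compared, and the labels do not say whether a replicate is 1 pup or a pool. The titles name the cells alveolar type 2, while the design text calls them ciliated.

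Solute carriers work by exchange or cotransport. Type 2 cells move salt and bicarbonate across the alveolar surface, which sets the volume and pH of the lining fluid, and they take up phosphate that is freed when surfactant phospholipids are broken down. In humans, loss of SLC34A2 leads to phosphate stones in the alveoli. Zinc is handled by opposing families: the Slc39 (ZIP) proteins bring it into the cytosol, and the Slc30 (ZnT) proteins carry it out of the cell or into vesicles. When cytosolic zinc rises, the transcription factor MTF1 binds metal response elements and switches on metallothionein genes and Slc30a1.

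Values are log2 signals, each gene on the scale of its own probe set, so levels were not ranked between genes. A gene counted as above background when its signal exceeded the 95th percentile of 76 chemosensory receptor genes on the same array (5.45 to 5.71) by limma's one-sided moderated test, with a Benjamini-Hochberg adjusted p under 0.05 over 18118 genes. The spread of a gene between replicates was tested by an F test of its variance over the arrays against the variance that limma fitted for genes of like signal, adjusted over the 13552 genes above background. Precision is limited by having 5 arrays, and a high adjusted p for spread does not show that a gene was stable. The arrays had medians of 7.12 to 7.19 and correlated across genes with Pearson's r of 0.988 to 0.994 in the 10 pairs, and no pair was a duplicate. Alveolar type 2 markers were above background in 11 of 11 genes, but so were 10 of 10 ciliated markers. Replicate 1 stood apart in its ciliated markers, whose score was 1.02 against −0.54 to 0.30 in the others, and in the bioB and bioC hybridisation controls (12.57 against 11.63 to 11.79). Replicate 3 was lowest in the fibroblast and smooth muscle (−0.66) and cardiac muscle (−1.11) lists and had the widest gap between 3′ and 5′ probe sets of the controls Gapdh and Actb (1.67 and 0.845 log2 units). Each score averages, over the genes of a list, the deviation from the gene's own mean, after subtraction of the median deviation of all genes called. In RNA from a sorted population, fewer cells of a type and less RNA per cell cannot be told apart, and p-values here reflect variation among these 5 samples alone.

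Of the 69 genes, 47 (68.1%) were above background and 22 were not, while 74.8% of all genes tested passed. A total of 45 genes exceeded the background on every array, 17 on none and 7 on 1 to 4 arrays. The share above background was 2 of 2 in Slc20, 12 of 14 in Slc39, 8 of 10 in Slc4, 7 of 10 in Slc30, 6 of 9 in Slc9, 5 of 8 in Slc12, 5 of 10 in Slc26 and 1 of 3 in each of Slc8 and Slc34. Among the 66 carriers without the 3 other genes the count was 44. With a stricter background, the 95th percentile of 41 genes restricted to other organs (8.90 in replicate 1 and 7.93 to 8.02 in the others), 35 genes (50.7%) passed, against 53.1% of all genes tested.

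**Figure D1:**
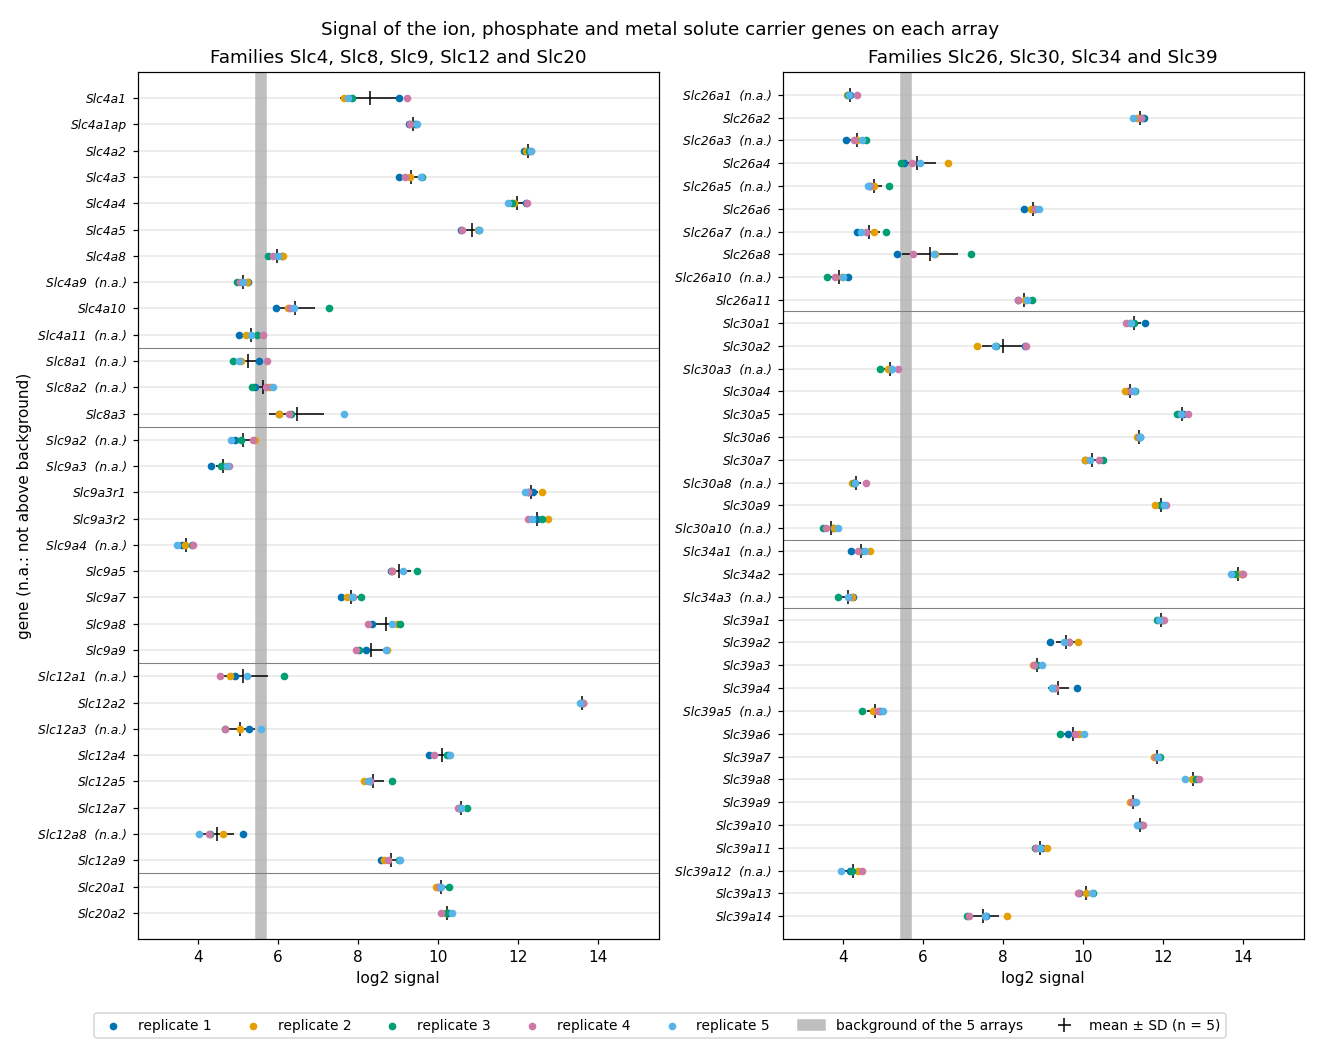
Signal of the 69 genes by family; the x axis is log2 signal, coloured points are the 5 replicates, black bars the mean ± SD (n = 5) and the grey band the background of the arrays. Slc34a2, Slc12a2, Slc39a8 and Slc30a5 lie far to the right of the band, whereas the means of the 22 genes marked n.a. lie within or left of it. Single replicates of some of these genes, such as Slc12a1, lie to its right.

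Phosphate carriers were split by subfamily. Slc34a2 encodes NaPi-IIb, the sodium-phosphate cotransporter of the type 2 cell surface, and read 13.97, 13.88, 13.79, 13.99 and 13.70 in replicates 1 to 5. Its mean of 13.87 ± 0.12 (SD, n = 5) lay 8.34 ± 0.060 (SE) log2 units above background (limma adjusted p = 8.83e-21), and the replicates differed by 1.22-fold at most. The mean is near the top of the scale, where the highest value of an array was 15.13 to 15.24, and saturation could not be checked. The kidney cotransporter genes Slc34a1 and Slc34a3 averaged 4.46 ± 0.18 and 4.13 ± 0.15 and exceeded the background on 0 of 5 arrays. Both Slc20 genes, which encode the widely expressed phosphate carriers PiT1 and PiT2, were above background. Slc20a1 read 9.99, 9.94, 10.27, 10.02 and 10.08 in replicates 1 to 5, and Slc20a2 averaged 10.21 ± 0.096. The phosphate exporter gene Xpr1 (10.95 ± 0.11) and the pyrophosphate transporter gene Ank (9.86 ± 0.032) were above background as well. Of 9 phosphate handling genes outside the families, 8 passed. The exception was Kl, the FGF23 co-receptor gene, at 4.84 ± 0.070. Phex, an endopeptidase gene that affects phosphate balance, read 9.30, 10.23, 9.27, 9.41 and 10.39 in replicates 1 to 5, with replicates 2 and 5 high (adjusted p = 0.857 for its spread by an F test on limma variances).

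Among the cation-chloride cotransporters, Slc12a2 had a narrow spread in the probe set used, while its other probe sets, lower on the scale, had SDs of 0.174 and 0.056. It encodes NKCC1, which loads chloride into epithelial cells from the blood side for secretion, and read 13.61, 13.61, 13.59, 13.62 and 13.55 in replicates 1 to 5. The mean of 13.60 ± 0.031 lay 8.06 ± 0.057 (SE) log2 units above background (limma adjusted p = 8.1e-21), and it too is near the top of the scale. The potassium-chloride cotransporter genes Slc12a4 (KCC1) and Slc12a7 (KCC4) averaged 10.09 ± 0.25 and 10.58 ± 0.092, and Slc12a9 8.81 ± 0.21. Slc12a5 encodes KCC2, known as a neuronal cotransporter, and had the widest range among the Slc12 genes above background, with 8.31, 8.14, 8.85, 8.29 and 8.26. In this probe set replicate 3 was high and the other replicates lay within 0.17 log2 units. A second probe set, above background on 4 arrays, read 5.29, 5.79, 5.58, 5.80 and 5.63, so replicate 3 was not high there. The order of replicates thus depends on the probe set, and no direction is given for Slc12a5. Under the organ-restricted background Slc12a5 was not called (limma adjusted p = 0.36), and it lay below it in replicate 1 only. The kidney genes Slc12a1 (NKCC2, 5.13 ± 0.62) and Slc12a3 (NCC, 5.05 ± 0.39) and the gene Slc12a8 (4.47 ± 0.42) were not above background. Slc12a1 exceeded it in replicate 3 only, at 6.16. All 8 measured genes of the WNK kinase pathway, which switches these cotransporters by phosphorylation, were above background, among them Wnk1 (13.10 ± 0.051), Stk39, the SPAK kinase gene (11.10 ± 0.17), and Oxsr1 (11.63 ± 0.037).

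Bicarbonate carriers of the Slc4 family were above background for 8 of 10 genes. Slc4a2 encodes AE2, the chloride-bicarbonate exchanger of the basolateral membrane, and averaged 12.24 ± 0.077. Slc4a4 encodes the electrogenic sodium-bicarbonate cotransporter NBCe1 and averaged 11.97 ± 0.22. The related gene Slc4a5 (NBCe2) had 10.84 ± 0.23, the anion exchanger gene Slc4a3 (AE3) 9.33 ± 0.26 and Slc4a1ap 9.38 ± 0.091. Slc4a8 (5.97 ± 0.15) and Slc4a10 (6.43 ± 0.50), which encode sodium-coupled carriers known from neurons, lay just above background, by 0.43 and 0.90 log2 units (limma adjusted p = 0.00332 and 0.00013). Neither passed the 99th percentile of chemosensory genes (differences of −0.52 and −0.06) or the organ-restricted background. Slc4a9 (5.14 ± 0.12) and Slc4a11 (5.34 ± 0.23) were not above background, and Slc4a11 passed with the 90th percentile (0.26 log2 units, limma adjusted p = 0.0239).

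Slc4a1, which encodes AE1 or band 3, the anion exchanger of red blood cells, had the lowest spread p of all members. It read 9.01, 7.66, 7.85, 9.22 and 7.76 in replicates 1 to 5, so replicates 1 and 4 were high and the other replicates lay within 0.19 log2 units, a 2.94-fold range. The F test of its spread on limma variances gave an adjusted p of 0.857. These values came from a probe set flagged by its suffix as open to cross-hybridisation. A second probe set of the gene without that flag read 8.78, 7.68, 7.74, 8.98 and 7.71, with the same replicates high. Alas2, the first enzyme gene of heme synthesis in red cells, read 9.84, 8.89, 9.26, 9.71 and 9.12, again highest in replicates 1 and 4. Of 7 erythroid markers measured, 2 (Alas2 and Klf1) were above background and 5 (Epb42, Hba-a1, Gata1, Rhag and Ermap) were not. Klf1 went the other way from Alas2 and read 6.07, 6.99, 6.26, 6.19 and 6.44, lowest in replicates 1 and 4. The mean level of the list was 5.42, 5.30, 5.43, 5.43 and 5.54. The erythroid scores, which rest on the 2 genes above background, were 0.09, 0.07, −0.12, 0.09 and −0.12, joint highest in replicates 1 and 4. Neutrophil markers, above background in 7 of 7, also had their highest scores in replicates 1 and 4 (0.56, −0.38, −1.12, 0.94 and 0.00). The part of either cell type in the Slc4a1 signal was not tested. Under the organ-restricted background Slc4a1 was not called (limma adjusted p = 0.525).

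Enzymes and channels that work with these carriers were mostly above background, in 12 of 14 genes. Car2, the carbonic anhydrase gene that supplies bicarbonate in the cytosol, averaged 13.42 ± 0.087, and Cftr, the chloride and bicarbonate channel gene, 11.61 ± 0.10. Car12 (5.47 ± 0.28) and the gastric proton pump gene Atp4a (4.95 ± 0.23) were not above background. Atp12a, a proton-potassium pump gene, read 4.92, 7.09, 6.53, 5.62 and 6.60 in replicates 1 to 5, low in replicates 1 and 4 (spread test on limma variances, adjusted p = 0.857).

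Among the sodium-proton exchangers, genes known from the Golgi and endosomes passed and 3 genes known from the plasma membrane did not. The genes of the plasma membrane exchangers NHE2, NHE3 and NHE4 were not above background: Slc9a2 averaged 5.13 ± 0.26, Slc9a3 4.62 ± 0.17 and Slc9a4 3.70 ± 0.16, and each exceeded the background on 0 of 5 arrays. Genes of the Golgi and endosome exchangers averaged 7.82 ± 0.18 for Slc9a7, 8.69 ± 0.37 for Slc9a8 and 8.32 ± 0.37 for Slc9a9. Slc9a5, best known from neurons, had 9.03 ± 0.28. Slc9a8 had the widest range of the family, at 8.34, 8.96, 9.05, 8.26 and 8.85 in replicates 1 to 5, with replicates 1 and 4 low. Another of its probe sets above background on all 5 arrays read 8.03, 7.93, 7.64, 7.81 and 7.79, highest in replicate 1 and lowest in replicate 3. The order of replicates thus depends on the probe set, and no direction is given for Slc9a8. Slc9a7 was below the organ-restricted background by 0.35 log2 units (difference −0.35), and Slc9a9 was not called there (limma adjusted p = 0.484). The scaffold genes Slc9a3r1 and Slc9a3r2, whose proteins tether NHE3, NaPi and CFTR to ezrin, averaged 12.32 ± 0.16 and 12.47 ± 0.20. Ezr itself had 12.58 ± 0.12. Of 6 scaffold and partner genes, 5 were above background and Chp2, an exchanger cofactor gene, was not (4.05 ± 0.096).

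Of the 3 sodium-calcium exchanger genes, 1 was above background. Slc8a1 encodes NCX1, the main exchanger of heart muscle, and averaged 5.26 ± 0.37, and Slc8a2 (NCX2, known from brain) averaged 5.63 ± 0.23 (limma adjusted p = 0.286). Slc8a2 passed with the 90th percentile as background (limma adjusted p = 0.000571). The 4 probe sets of Slc8a1 averaged 2.95 to 5.26, although 8 of 8 cardiac muscle markers were above background in the same samples. Slc8a3 (NCX3, known from skeletal muscle and brain) read 6.03, 6.03, 6.33, 6.27 and 7.66 in replicates 1 to 5, so replicate 5 alone was high. The adjusted p of its spread was 0.888 by the F test on limma variances. Cardiac marker scores of 0.41, 0.23, −1.11, −0.07 and 0.54, from a list whose mean level was 7.05 to 8.71, were also highest in replicate 5. The immune (0.37) and club and secretory (0.41) scores were highest there as well, and the part of these cell types in the Slc8a3 value was not tested. Slc8a3 was 0.93 log2 units above background (limma adjusted p = 0.00033) but did not pass the 99th percentile, the organ-restricted background or the median over its 2 probe sets (limma adjusted p = 0.111). Other calcium extrusion genes were above background in 7 of 11, including the plasma membrane calcium pump gene Atp2b1 (12.60 ± 0.086) and the endoplasmic reticulum pump gene Atp2a2 (13.65 ± 0.085). The exceptions were Atp2b3 (5.53 ± 0.29), Atp2b4 (5.48 ± 0.42), Slc24a1 (4.36 ± 0.12) and Slc24a2 (4.34 ± 0.38).

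The Slc26 anion exchangers were evenly split, with 5 of 10 above background. Slc26a2, the sulphate transporter gene needed for cartilage, averaged 11.41 ± 0.10, Slc26a6, a chloride, bicarbonate and oxalate exchanger gene, 8.74 ± 0.14, and Slc26a11 8.52 ± 0.15. Slc26a11 was not called under the organ-restricted background (limma adjusted p = 0.126), and it too lay below it in replicate 1 only. Not above background were Slc26a1 (4.18 ± 0.095), the colonic exchanger gene Slc26a3 (4.36 ± 0.19), the hair cell motor gene Slc26a5, which encodes prestin (4.78 ± 0.21), Slc26a7 (4.65 ± 0.29) and Slc26a10 (3.91 ± 0.20).

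Both remaining Slc26 genes lay near the limit. Slc26a4 encodes pendrin, an exchanger of chloride, iodide and bicarbonate, and read 5.54, 6.63, 5.46, 5.73 and 5.94 in replicates 1 to 5, highest in replicate 2. The mean of 5.86 ± 0.47 was 0.33 ± 0.169 (SE) log2 units above background (limma adjusted p = 0.049). That call was lost without replicate 2, where the difference was 0.12 log2 units (limma adjusted p = 0.289). It was also lost without replicate 4 (0.40 log2 units, limma adjusted p = 0.0563) and without replicate 5 (0.31 log2 units, limma adjusted p = 0.0742), with a difference near or above that over all arrays. Foxi1 (3.51 ± 0.056) and Ascl3 (5.63 ± 0.33), the defining transcription factor genes of ionocytes, were not above background, and 2 of 4 measured ionocyte genes, Cftr and Atp6v0d2, were. Slc26a8, known from sperm, read 5.35, 6.31, 7.19, 5.75 and 6.28, with replicate 3 high and replicate 1 low (3.58-fold range, F test on limma variances, adjusted p = 0.882). It was 0.64 log2 units above background (limma adjusted p = 0.0068), and not with the 99th percentile. These values came from the higher of its 2 probe sets. The other averaged 5.16 ± 0.11 and exceeded the background on 0 of 5 arrays.

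Zinc exporters of the Slc30 family were above background in 7 of 10 genes. Slc30a1, which encodes the zinc exporter ZnT1 of the plasma membrane, averaged 11.26 ± 0.18. The genes of the secretory pathway ZnT proteins had 12.46 ± 0.10 for Slc30a5, 11.39 ± 0.031 for its partner Slc30a6 and 10.23 ± 0.21 for Slc30a7. Slc30a4, whose product loads zinc into vesicles, averaged 11.18 ± 0.11 and Slc30a9 11.95 ± 0.11. Slc30a2, a vesicular carrier needed for zinc in milk, varied most among these and read 8.54, 7.35, 7.82, 8.57 and 7.80 in replicates 1 to 5. Replicates 1 and 4 were high, a 2.33-fold range (F test on limma variances, adjusted p = 0.956). Neutrophil scores were highest in the same replicates, and their part in the value was not tested. Under the organ-restricted background its difference was −0.16. Not above background were the synaptic vesicle gene Slc30a3 (5.17 ± 0.16), the insulin granule gene Slc30a8 (4.33 ± 0.13) and the manganese exporter gene Slc30a10 (3.71 ± 0.15).

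Zinc importers of the Slc39 family were above background in 12 of 14 genes. Slc39a8 encodes ZIP8, which takes up zinc, manganese and cadmium, and averaged 12.75 ± 0.13, which was 7.21 ± 0.064 (SE) log2 units above background (limma adjusted p = 3.7e-20). Slc39a1 (ZIP1) had 11.94 ± 0.078, Slc39a7 (ZIP7, which releases zinc from the endoplasmic reticulum) 11.85 ± 0.053, Slc39a10 (ZIP10) 11.43 ± 0.065 and Slc39a9 (ZIP9) 11.24 ± 0.066. The remaining genes above background averaged 10.06 (Slc39a13, ZIP13), 9.75 (Slc39a6, ZIP6), 9.58 (Slc39a2, ZIP2), 9.38 (Slc39a4, ZIP4, the zinc importer of the gut), 8.93 (Slc39a11) and 8.84 (Slc39a3). Slc39a14 (ZIP14), an importer of zinc, iron and manganese, had the widest range of the family, at 7.58, 8.10, 7.11, 7.15 and 7.56 in replicates 1 to 5. Its difference was −0.67 from the organ-restricted background, and with the median over its probe sets it was not called (limma adjusted p = 0.0792). Slc39a5 (4.81 ± 0.21) and the brain gene Slc39a12 (4.25 ± 0.20) were not above background.

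Genes that bind zinc, iron and copper or carry them by other routes were above background in 17 of 17. The metallothionein genes Mt1 and Mt2 averaged 13.37 ± 0.14 and 13.44 ± 0.17, and Mtf1, whose product switches them on, 10.87 ± 0.16. Among iron and copper genes, Tfrc, the transferrin receptor gene, had 13.18 ± 0.16, the ferritin heavy chain gene Fth1 13.99 ± 0.067, and the copper importer gene Slc31a1 12.55 ± 0.19. Cp, which encodes the copper-binding ferroxidase ceruloplasmin, read 9.84, 11.02, 10.44, 10.27 and 10.98 in replicates 1 to 5 (F test on limma variances, adjusted p = 0.857), low in replicate 1. Across the 6 lists of partner genes, 57 of 65 measured genes (87.7%) were above background, against 74.8% of all genes. These lists were chosen by function with earlier results of these samples known, and no test sets them against other genes.

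Because Slc30a1 is a known MTF1 target, promoters were read for metal response elements. Windows of 250 bases before to 50 bases after the start site came from RefSeq (GRCm38.p6), which had 70 windows for 55 of the 69 genes. Each was searched on both strands for TGCACNC and TGCGCNC, 7-base patterns that cannot match at the same position. The elements are in capitals below, 5′ to 3′ along the gene's strand. Slc30a1 lies on the plus strand at chr1:191906531-191906830, Slc30a4 on the minus strand at chr2:122702614-122702913 and Slc34a2 on the plus strand at chr5:53049103-53049402. The first pair are zinc carriers and the last, a phosphate carrier, shows that the pattern is not restricted to metal genes.
Slc30a1: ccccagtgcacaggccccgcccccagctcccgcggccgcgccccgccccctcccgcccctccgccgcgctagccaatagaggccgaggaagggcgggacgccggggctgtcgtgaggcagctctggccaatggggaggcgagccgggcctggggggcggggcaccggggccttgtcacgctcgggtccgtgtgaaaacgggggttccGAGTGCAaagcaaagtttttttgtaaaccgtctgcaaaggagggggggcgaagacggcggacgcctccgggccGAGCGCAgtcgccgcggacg
Slc30a4: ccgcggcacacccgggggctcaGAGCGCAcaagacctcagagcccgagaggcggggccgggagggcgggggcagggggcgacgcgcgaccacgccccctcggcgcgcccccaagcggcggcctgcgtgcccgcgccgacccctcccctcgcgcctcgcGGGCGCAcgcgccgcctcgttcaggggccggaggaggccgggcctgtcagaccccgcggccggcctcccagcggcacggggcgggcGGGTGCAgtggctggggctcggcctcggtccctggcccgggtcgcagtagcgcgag
Slc34a2: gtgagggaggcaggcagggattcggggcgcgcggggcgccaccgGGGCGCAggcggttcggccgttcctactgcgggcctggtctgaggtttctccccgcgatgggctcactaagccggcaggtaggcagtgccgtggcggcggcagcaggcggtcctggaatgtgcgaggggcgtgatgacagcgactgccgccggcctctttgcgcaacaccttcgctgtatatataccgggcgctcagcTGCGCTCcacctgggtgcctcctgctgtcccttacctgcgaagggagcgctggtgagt

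The Slc30a1 window held 2 matches, the first at position −43 from the start site, the Slc30a4 window 3 and the Slc34a2 window 2. At least 1 match was found for 25 of the 55 genes (45.5%), against 25.7% of all 32851 windows, which are counted per window and not per gene. By family, 11 of 20 zinc carrier genes and 14 of 35 other members had a match, and 4 and 3 genes had 2 or more. Of all windows, 7.11% held 2 or more. A match is a string of letters and no evidence of binding.

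The members varied between replicates about as much as all genes above background, or slightly more. Their median SD was 0.175 against 0.154 for all 13552 genes above background, the median range was 0.41 against 0.38 log2 units, and 29 of the 47 (61.7%) varied by less than 0.5 log2 units, against 65.3% of all genes. Slc30a6 and Slc12a2 had the smallest SD of the 47, at 0.031 each. For Slc12a2 this held in the probe set near the top of the scale, and its other probe sets had SDs of 0.174 and 0.056. In 6 genes the range exceeded 1 log2 unit: Slc4a1, Slc4a10, Slc8a3, Slc26a4, Slc26a8 and Slc30a2. The share of all genes with such a range was not computed. By the F test on limma variances 0 members passed at an adjusted p under 0.05 (lowest adjusted p = 0.857), as did 0 of all genes (0%). The limma variances were fitted to these same genes. By the same F test the secretory marker Scgb3a1, with a 23.9-fold range, also had an adjusted p of 0.857. The test could thus hardly call any gene after adjustment, and its 0 calls do not show that the members were stable. At an unadjusted p under 0.05 there were 3 of 47 (6.38%), namely Slc4a1, Slc26a8 and Slc8a3, against 5.60% of all genes, so the share was near the background. With the median over probe sets 1 was left, Slc4a1.

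**Figure D2:**
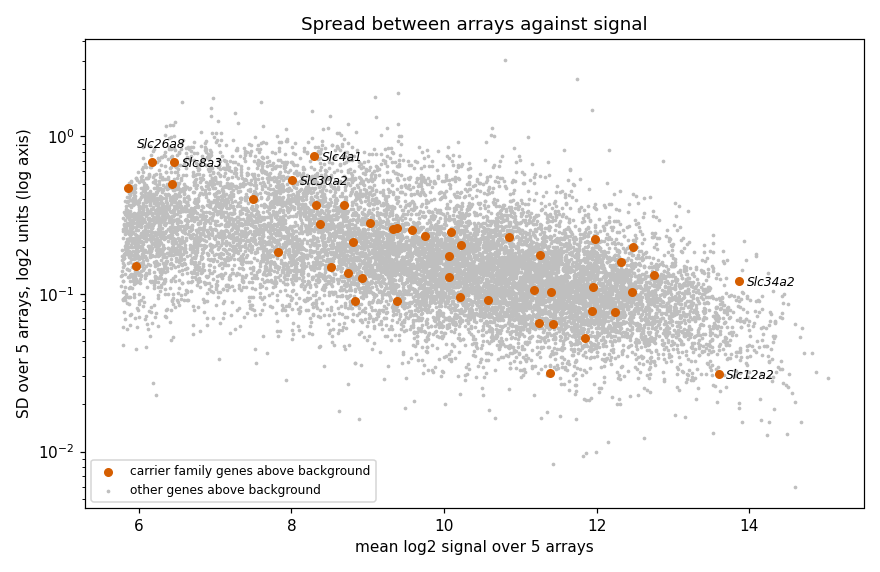
SD over the 5 arrays (log axis, log2 units) against mean log2 signal, with the 47 member genes above background in orange and the other genes above background in grey. The orange points lie within the grey cloud, with Slc4a1, Slc26a8 and Slc8a3 near its upper edge and Slc12a2 near its lower edge.

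Which replicate was highest varied from gene to gene. Replicate 3 was highest in 14 of the 47 genes (29.8%), replicate 5 in 12 (25.5%), replicate 4 in 10 (21.3%), replicate 2 in 8 (17.0%) and replicate 1 in 3 (6.38%). Among all genes above background, replicate 3 was highest in 26.6%, replicate 5 in 21.2%, replicate 4 in 13.5%, replicate 2 in 16.2% and replicate 1 in 22.4%. Replicate 1 was lowest in 13 members (27.7%, against 22.8% of all genes). The 3 genes with replicate 1 on top were Slc26a2, Slc30a1 and Slc39a4. Slc39a4 read 9.85, 9.31, 9.23, 9.29 and 9.23, so replicate 1 alone was high, and ciliated markers were highest there too (10 of 10 above background, list mean level 10.08 against 8.53 to 9.37). The neuroendocrine score was also highest in replicate 1 (0.58 against −0.53 to 0.13). Their part in the value was not tested.

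A pair of further genes, chosen after their values were seen, went opposite ways in replicates 1 and 4. Slc4a4 read 12.20, 11.89, 11.83, 12.22 and 11.73 in replicates 1 to 5, with replicates 1 and 4 high. The NBCe1 gene has 5 probe sets, and the 4 that exceeded the background on every array all read highest in these replicates, for example 8.42, 7.74, 7.53, 8.41 and 7.50. Slc4a5 read 10.58, 11.00, 11.01, 10.60 and 11.02, low in replicates 1 and 4, and rests on 1 probe set. Neither passed the spread test (F test on limma variances, adjusted p = 0.955 and 0.996). Alveolar type 1 markers, above background in 10 of 10, had scores of −0.19, 0.12, 0.09, −0.08 and 0.07, also lowest in replicates 1 and 4, and alveolar type 2 scores were 0.01, −0.02, 0.03, 0.07 and −0.08. The part of cell composition in these differences was not tested.

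**Figure D3:**
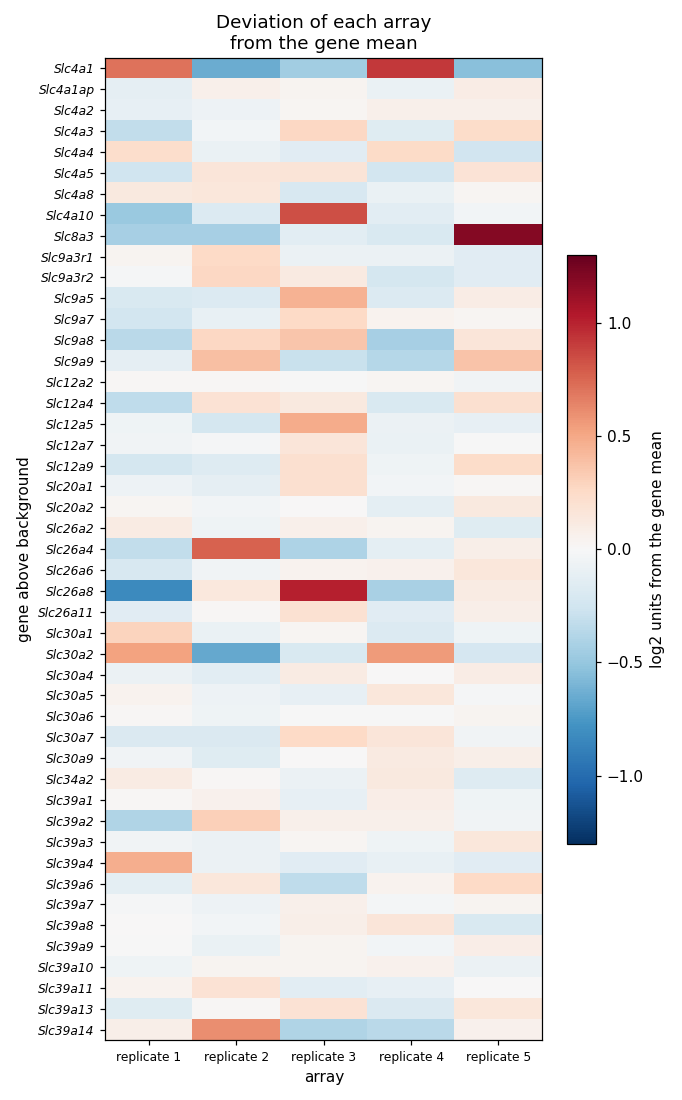
Deviation of each replicate (columns) from the mean of the gene (rows, 47 genes above background), in log2 units by colour. Slc4a1 and Slc30a2 are high in replicates 1 and 4, Slc8a3 in replicate 5, Slc26a4 in replicate 2 and Slc26a8 in replicate 3, while most rows are pale.

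Probe sets of the same gene did not always behave alike. Of the 69 genes, 38 had several probe sets and 31 had 1. In 6 genes (Slc4a8, Slc8a3, Slc9a9, Slc20a1, Slc39a6 and Slc39a14) at least 1 probe set exceeded the background on all 5 arrays and at least 1 on none. The share over all genes with several probe sets was not computed, so this count is not read as particular to the members. For Slc20a1 the means were 10.06, 5.80 and 4.13, for Slc39a6 9.75, 6.70, 5.62 and 4.33, and for Slc9a9 8.32, 6.37, 3.85 and 3.36. Slc4a8 rested on the highest of 5 probe sets, and with the median over them its difference from background was −1.02, while that of Slc9a9 was −0.24. The scaffold gene Slc9a3r2 was above background on all arrays in 6 of 6 probe sets. Both probe sets of Slc30a7 had similar means (10.23 and 10.13), but their order over replicates differed. The first read 10.04, 10.04, 10.49, 10.39 and 10.18 and the second 10.40, 9.97, 10.04, 10.33 and 9.90, so replicate 1 was lowest in one and highest in the other. No direction between replicates is given for that gene. Slc39a7 rested on a single probe set whose suffix marks possible cross-hybridisation.

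**Figure D4:**
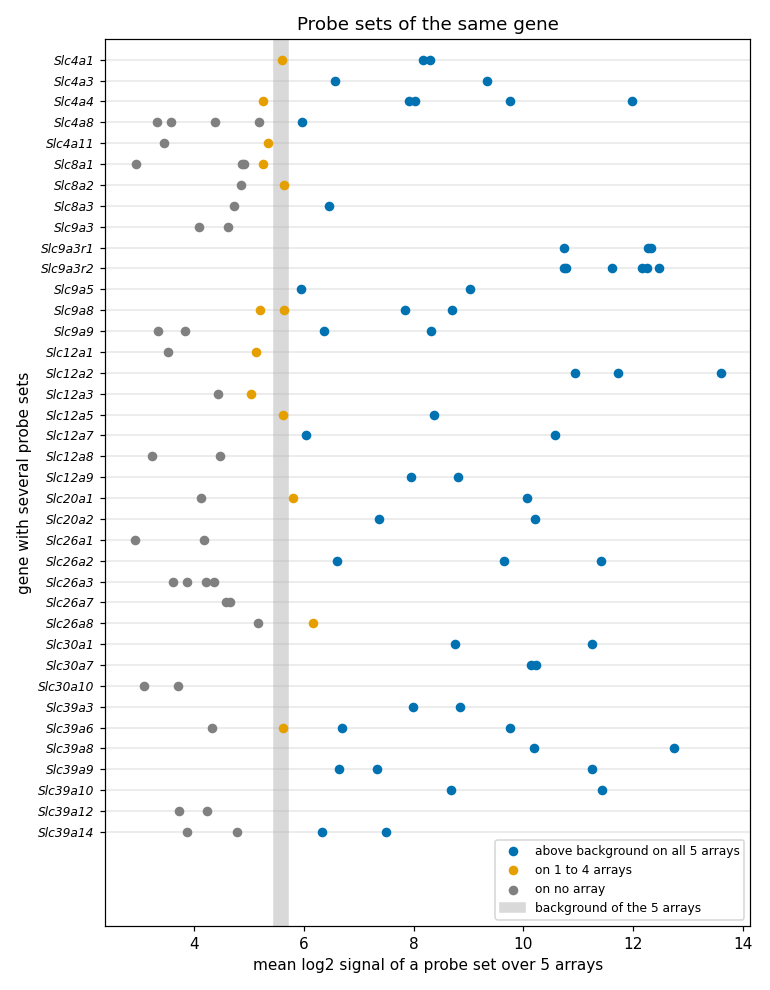
Mean log2 signal over 5 arrays of every probe set of the 38 genes with several; blue points exceed the background on all 5 arrays, orange on 1 to 4 and grey on none, and the light band is the background. Genes such as Slc20a1, Slc9a9 and Slc39a14 have points on both sides of the band, whereas the 6 points of Slc9a3r2 are all far above it.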

How the data were processed

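RNA of the GFP-positive lung cells was amplified with NuGEN Ovation kits, labelled with biotin and hybridised to Affymetrix arrays, per the labels' protocols. The deposited values are 1 log2 signal per probe set and array. The base 2 was inferred, because the values (2.46 to 15.24) then stay inside the range of a 16-bit scanner. What software and normalization the authors used is not stated in the labels, and the values were taken as deposited. A platform annotation of 2016 gave names: of 45101 probe sets, 34958 had 1 gene symbol, 932 several and 9211 were unnamed here.

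For the test of detection, each value minus its array's background entered an intercept-only limma model (limma 3.58.1, R 4.3.3; eBayes with a mean-variance trend), one-sided. For the test of spread, the variance over the arrays was divided by the variance limma fitted (trend, robust) and compared with an F distribution on 4 and 3.86 degrees of freedom, one-sided, with Benjamini-Hochberg adjustment. Both were tested on simulated data. Values per array are given for members with an unadjusted spread p under 0.05, the member of widest range in each family among those above background, Slc34a2, and members whose call changes without 1 replicate. Other genes given per array were chosen after their values were seen. Members and lists were chosen with earlier results of these data known. Alternatives were other backgrounds, probe set rules, normalizations, variance priors and filters, and leaving out each replicate.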

Additional observations from a re-analysis of the deposited data

Results flagged for a closer look

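In 7 of the 69 genes 1 replicate lay far from the other replicates, its gap to the nearest being more than 0.71 of the whole range, Dixon's critical value for 5 samples. Chance flags about 1 in 20 groups. The share over all genes was not computed, so the count is not read as a result about these genes. Of these genes, 3 were above background. Slc8a3 was high in replicate 5 at 7.66 (gap 0.819 of the range), Slc39a4 in replicate 1 at 9.85 (0.88), and Slc12a5 in replicate 3 at 8.85 (0.769). For Slc12a5 this held in the probe set used, and its other probe set was not high in replicate 3. The other 4 were not above background, where differences cannot be read as expression: Slc26a1 with 4.35 and Slc30a8 with 4.57, both high in replicate 4, Slc26a5 with 5.15, high in replicate 3, and Slc34a3 with 3.88, low in replicate 3.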

How the results depend on the processing

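Under 14 alternatives the count of members above background ran from 35 (organ-restricted background) to 49 (90th percentile), against 47, and that of partner genes from 45 to 60, against 57. Without 1 replicate the counts were 46 to 47 and 56 to 57. In 55 of the 69 genes the call held under every alternative that gave a value. Slc26a4 alone changed call without 1 replicate, and it was also lost with quantile normalization (difference 0.32) and without the variance trend (0.33), where the difference hardly moved from 0.33. Differences from background that changed sign together with the call are given by setting. With the 99th percentile they were −0.63 (Slc26a4), −0.31 (Slc26a8), −0.06 (Slc4a10), −0.52 (Slc4a8) and −0.02 (Slc8a3). With organ-restricted genes they were −2.31 (Slc26a4), −1.99 (Slc26a8), −0.16 (Slc30a2), −0.67 (Slc39a14), −1.74 (Slc4a10), −2.20 (Slc4a8), −1.71 (Slc8a3) and −0.35 (Slc9a7). With the median over probe sets they were −1.02 (Slc4a8) and −0.24 (Slc9a9). With the 90th percentile the difference was 0.26 (Slc4a11), now called. A higher background is stricter by construction. Members past the spread test numbered 0 under all alternatives, and those with an unadjusted spread p under 0.05 numbered 3, with 1 under the median over probe sets, 2 without robust variance fitting, 2 to 3 without 1 replicate, 4 with no filter on background and 3 under the other alternatives. No paired analysis was possible because there was 1 group. A filter on the lowest 25% of genes removed all 22 members that were not above background.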
